A study of Mus musculus with 6 samples.

Results

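The genes that encode the replication-dependent histones were followed in NMuMG cells, epithelial cells of a line that comes from mouse mammary gland, before and after transforming growth factor β1 (TGFβ1). Of 21240 genes in the count table, 64 carried a symbol that starts with Hist1h, Hist2h, Hist3h or Hist4h, and the 55 of them with at least 2 counts per 1000000 total counts of the library (CPM) in at least 2 of the 6 libraries were taken as members. The members are 5 H1, 13 H2A, 15 H2B, 10 H3 and 12 H4 genes. They were thus chosen by their CPM in these libraries, with the pattern over the groups already known, and their levels are given as a description.

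Cells of all groups were kept for 6 h in medium that held neither serum nor insulin. They then received TGFβ1 at 5 ng/ml for 2 h, TGFβ1 at 5 ng/ml for 12 h, or the vehicle alone for 2 h, and total RNA was read by stranded sequencing in 2 biological replicates per group. No vehicle library was taken at 12 h, so the comparison of 12 h with vehicle also sets a longer against a shorter time without serum or insulin, and the time and the treatment cannot be told apart in it. The labels name one cell line and no clones or genetic changes.

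Histones are the proteins that DNA is wrapped around. H2A, H2B, H3 and H4 form the core of the nucleosome, and H1, the linker histone, binds where the DNA enters and leaves it. Most of this protein is made in S phase, when the genome is copied, from clustered genes that are usually transcribed together. Their mRNAs end in a conserved stem-loop in place of a poly(A) tail. The stem-loop-binding protein Slbp holds this structure during processing and translation, and the mRNAs are degraded when DNA synthesis stops. Libraries from total RNA can hold such mRNAs, which a selection on poly(A) would largely lose.

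The stem-loops are shown first because they set these genes apart from nearly all others that were counted. A stem-loop of the histone consensus was searched on the transcribed strand within 200 bases after the annotated stop codon (NCBIM37, the same assembly as mm9, with GENCODE vM1). It was found for 52 of the 55 members, 22 to 59 bases after the stop codon, and for 3 of 9737 other tested genes (0.0308%), namely Btbd10, H2afx and Ppm1b. No match was found for Hist2h2be, Hist2h2bb and Hist1h2an. The sequences below, with the 16-base stem-loop in capitals, are those of members on which the results turn: the linker histone genes Hist1h1b, which fell at 12 h, and Hist1h1c, which did not pass the test in the fit of all 3 groups without a block, H3 and H2B genes that fell at 12 h, and H4 genes.

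Hist1h1b: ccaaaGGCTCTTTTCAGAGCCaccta
Hist1h1c: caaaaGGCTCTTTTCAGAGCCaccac
Hist1h2bh: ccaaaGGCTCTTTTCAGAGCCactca
Hist1h3b: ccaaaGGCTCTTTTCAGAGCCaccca
Hist1h3g: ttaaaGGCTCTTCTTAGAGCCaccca
Hist1h4d: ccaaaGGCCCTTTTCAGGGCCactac
Hist1h4b: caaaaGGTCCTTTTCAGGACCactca

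Hist1h1b lies on the minus strand of chromosome 13, with the 26 printed bases (the stem-loop and 5 bases on each side) at chr13:21871701-21871726, and those of Hist1h1c, on the plus strand, are at chr13:23831376-23831401. The 52 stem-loops had 8 different 16-base sequences. The commonest, that of Hist1h1b and Hist1h1c, was shared by 30 members and by no H4 gene, while that of Hist1h4d was shared by 7 members, all of them H4. Hist1h1b, which fell at 12 h, and Hist1h1c, with a log2FC above 0, have the same 16 bases there.

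Promoters were read from RefSeq (GRCm38.p6, another assembly than that of the counts), as windows from 250 bases before to 50 bases after each start, and 50 of the 55 members had an entry. The 150 bases before the start are printed for 4 members, with matches in capitals to the CCAAT box (CCAAT or, on the other strand, ATTGG), the TATA box (TATAAA) and the AAACACA element known from H1 promoters.

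Hist1h1b: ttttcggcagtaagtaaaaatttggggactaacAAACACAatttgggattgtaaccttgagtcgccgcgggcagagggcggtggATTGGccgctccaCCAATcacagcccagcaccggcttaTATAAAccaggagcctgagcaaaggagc
Hist1h1c: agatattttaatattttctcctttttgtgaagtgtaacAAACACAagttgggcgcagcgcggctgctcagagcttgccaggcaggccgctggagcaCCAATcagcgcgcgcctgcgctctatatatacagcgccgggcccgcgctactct
Hist1h3b: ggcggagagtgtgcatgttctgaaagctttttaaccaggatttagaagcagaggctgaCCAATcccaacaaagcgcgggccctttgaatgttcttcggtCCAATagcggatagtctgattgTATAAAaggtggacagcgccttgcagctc
Hist1h4d: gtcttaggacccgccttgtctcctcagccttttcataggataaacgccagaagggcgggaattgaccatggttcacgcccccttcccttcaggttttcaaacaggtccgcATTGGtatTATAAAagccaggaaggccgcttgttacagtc

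These windows lie at chr13:21780626-21780775 on the minus strand for Hist1h1b, and on the plus strand at chr13:23738657-23738806 for Hist1h1c, chr13:23752195-23752344 for Hist1h3b and chr13:23581418-23581567 for Hist1h4d. Searched on both strands of the whole window, CCAAT was found in 42 of the 50 promoters, against 37.4% of the 32851 RefSeq promoters of the table. It was in each of the 39 windows of H1, H2A, H2B and H3 members and in 3 of the 11 of H4 members. TATAAA was in 31 of the 50 (13.6% of all promoters) and AAACACA in 7 (7.18%), which included 4 of the 5 H1 members. The octamer ATTTGCAT was in 6 H2A and 7 H2B windows and in no other member (1.74% of all promoters). In 6 pairs an H2A and an H2B gene read away from each other and their windows overlap, so that each pair shares 252 to 279 of the 300 bases. The pairs are Hist1h2ai with Hist1h2bl, Hist1h2ak with Hist1h2bn, Hist1h2an with Hist1h2bp, Hist1h2ah with Hist1h2bk, Hist1h2ag with Hist1h2bj, and Hist1h2ae with Hist1h2bg.

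On NCBIM37, 46 members lie on chromosome 13, 7 on chromosome 3, 1 on chromosome 11 and 1 on chromosome 6. Coding sequences of a class resemble each other, and the authors kept uniquely mapped reads of 50 bases. Of all 50-base stretches in the exons of a member, a median of 56.2% occurred only once in the genome, with 9 members under 25% and 9 at 90% or above, whereas the median was 99.9% for 42 S-phase genes. Hist2h2aa1 had no unique stretch (0%), and its exon overlaps that of Hist2h3c1 on the same strand. The share of reads lost or exchanged between near-identical genes cannot be read from the counts, so values of the less unique members are uncertain as to which gene they belong to. On the same strand, exons of Hist3h2a overlap Trim17, those of Hist1h2be Gm11398 and those of Hist1h2ac a 5S rRNA gene.

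Depth ranged from 14705886 to 23786993 counts per library, and the TMM factors of edgeR lay between 0.961 and 1.07. Values below are TMM-normalized CPM, with replicate 1 given before replicate 2, and 11080 genes were tested. The epithelial label was checked by markers: Krt8, Krt18, Krt19 and Cdh1 were at 338 CPM or more in every library, Krt7 was at 1.02 to 5.19 CPM, and Epcam, Cldn3 and Cldn7 were at 0.697 CPM or less. At 12 h Krt8, Krt18 and Krt7 were called higher than in vehicle (log2FC 1.63, 1.53 and 1.60) and Krt19 lower (-1.95). The 5 fibroblast markers, of which 2 were tested and Col1a1 was called higher at 2 h and at 12 h, summed to 3.57 to 4.59 CPM in vehicle, 8.71 to 8.78 at 2 h and 13.3 to 14.4 at 12 h, and Lum and Dcn were at or near 0. The 4 leukocyte markers, led by Cd68, summed to 4.36 to 6.88 CPM over the 6 libraries with Cd3e at 0, and the 3 endothelial markers to 0.118 to 0.191 CPM in vehicle, 0.304 to 0.353 at 2 h and 1.74 to 1.95 at 12 h, where it was mostly Cdh5. Their part in the histone values was not tested. Calls rest on 2 biological replicates in each group. The p-values set each difference against the spread between replicates, which was estimated from all 3 groups together with information shared across genes.

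By the 2nd highest CPM over total counts, the members nearest the threshold were Hist1h2bp (2.72), Hist1h2an (3.54) and Hist1h2af (4.22). Just outside were Hist2h3c2 (1.98), Hist1h2aa (1.56) and Hist3h2ba (1.31). In TMM-normalized CPM, Hist1h2bp had 0.471 and 2.55 CPM in vehicle, 0.607 and 7.72 CPM at 2 h, and 0.131 and 0.565 CPM at 12 h, and Hist1h2af had 0.412 and 3.95 CPM in vehicle, 2.02 and 16.5 CPM at 2 h, and 0.174 and 0.3596 CPM at 12 h. Both were highest in replicate 2 at 2 h. Members under 2 CPM in both 12 h libraries passed the threshold only through vehicle or 2 h libraries. For them a low level at 12 h is partly fixed by the threshold. In counts, Hist2h3c2 had 25 and 26 in vehicle, 31 and 40 at 2 h, and 47 and 34 at 12 h. Hist1h2aa had 7 and 23, 28 and 96, and 28 and 28, and Hist3h2ba had 6 and 23, 17 and 26, and 5 and 4, in the same order. The other rows left out were Hist3h2bb-ps, Hist1h2bq, Hist1h2ao, Hist1h4n, Hist1h2br and Hist1h1t.

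The replicates were looked at apart before the groups were compared, because the histone genes set them apart more than almost any other genes. In vehicle, replicate 2 was at least 2-fold above replicate 1 for 50 of the 55 members (2.08% of all genes tested), with a median of 3.50-fold. At 2 h this held for 51 members (2.1% of all genes), with a median of 5.45-fold. At 12 h it held for 5 (0.704% of all genes), and the median was 1.00. Of the 50 genes with the highest ratio of replicate 2 to replicate 1, members made up 37 in vehicle, 42 at 2 h and 2 at 12 h.

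**Figure D1:**
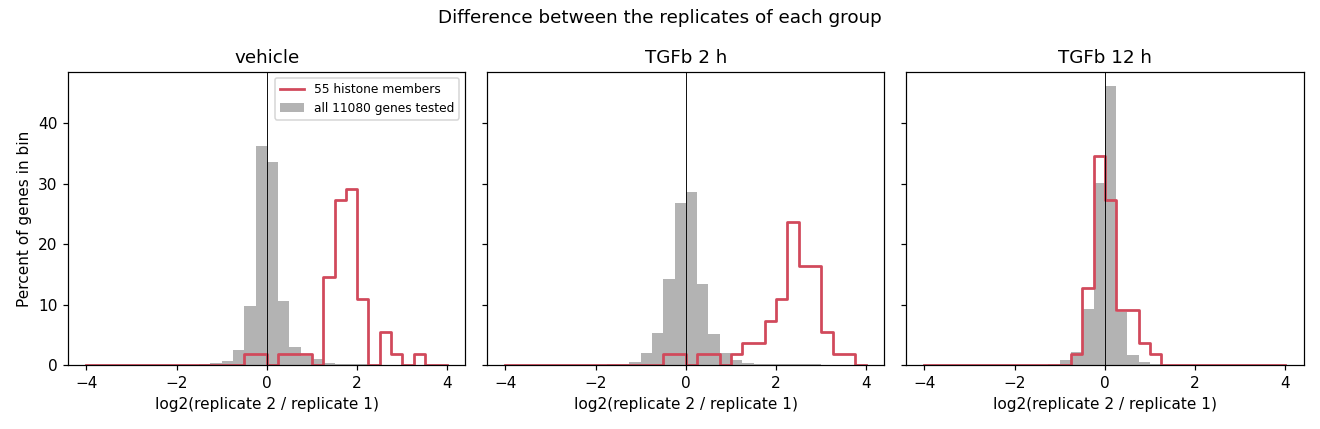
Histograms of log2(replicate 2 / replicate 1) in each of the 3 groups, with the percent of genes per bin on the vertical axis. Gray bars are the 11080 genes tested and the red outline the 55 histone members, whose median lies at 1.75 in vehicle, 2.41 at 2 h and 0.00 at 12 h.

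This difference between replicates reached all 5 classes. At 2 h the median ratio of replicate 2 to replicate 1 was 2.66 for H1, 7.33 for H2A, 4.96 for H2B, 5.58 for H3 and 5.33 for H4. The 5 members with a ratio under 2-fold in vehicle or at 2 h were Hist2h2be, Hist3h2a, Hist1h2bc, Hist1h1c and Hist1h2ba, the last a testis-type H2B. Hist3h2a had 8.24 and 6.57 CPM in vehicle, 4.96 and 3.68 CPM at 2 h, and 5.49 and 4.73 CPM at 12 h, so that its highest level was in vehicle. Hist1h2bc had 29.7 and 26.8 CPM in vehicle, 36.6 and 60.9 CPM at 2 h, and 20.6 and 13.2 CPM at 12 h, with both 2 h libraries above and both 12 h libraries below both vehicle libraries.

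Genes of DNA replication differed between the same libraries. The median log2(replicate 2 / replicate 1) of 42 S-phase genes was 0.69 in the vehicle group, 0.72 after 2 h and -0.07 after 12 h, and 41, 40 and 17 of them were higher in replicate 2. Over all genes tested these medians lay between 0.00 and 0.03. RNAs without a poly(A) tail differed as well: among 42 such RNAs tested (small nucleolar and other noncoding RNAs), the medians were 0.33, 0.59 and 0.12. Malat1, a nuclear noncoding RNA, took 2.64% of all counts in replicate 2 at 2 h and 4.14% to 5.34% in the other 5 libraries. The part in the histone values of what these other genes show was not tested, and in RNA from whole cultures more cells in S phase cannot be told apart from more histone mRNA per cell.

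**Figure D2:**
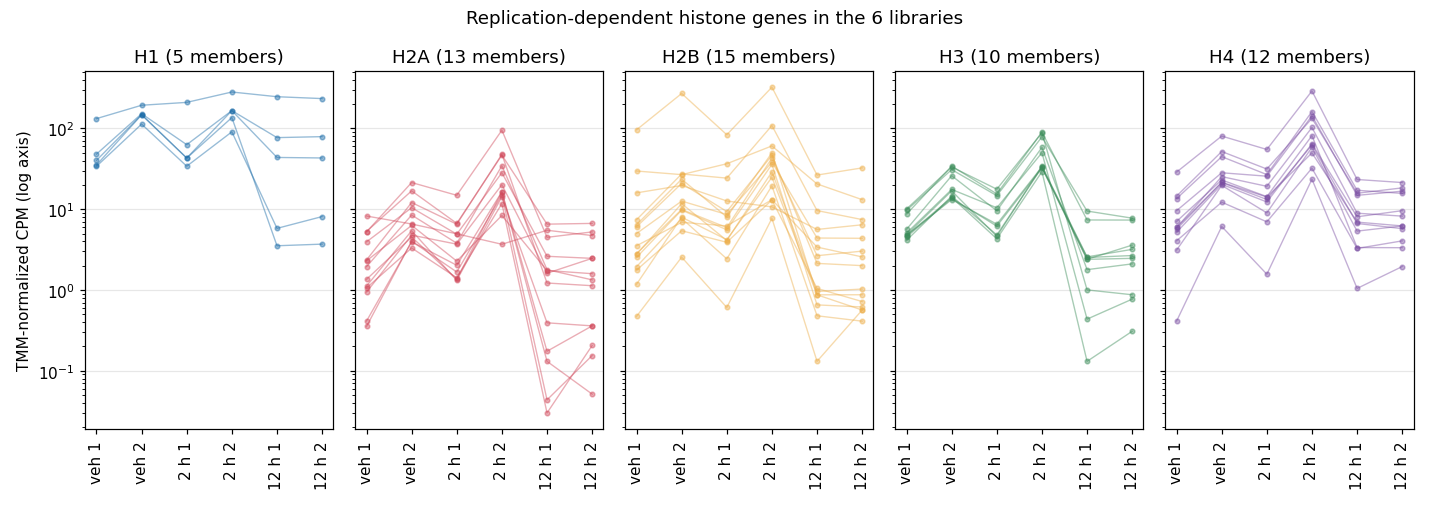
TMM-normalized CPM (log axis) of each of the 55 members in the 6 libraries, by histone class, with a line for each gene. Most lines peak in replicate 2 at 2 h, and the single 0 (Hist1h2an, 12 h replicate 1) is drawn at the lower edge.

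Summed over the 55 members, CPM was 675 and 1899 in vehicle (1287 ± 865, SD, n = 2), 989.7 and 3764 at 2 h (2377 ± 1962, SD, n = 2), and 629 and 621 at 12 h (625 ± 5.81, SD, n = 2). Both 12 h libraries were below all 4 others, but replicate 1 of vehicle lay close to them. Without replicate 2 of vehicle, the vehicle sum would be 675 in place of 1287, and without replicate 2 at 2 h the sum at that time would be 989.7 in place of 2377.

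The H1 genes summed to 290 and 756 CPM in vehicle, 394 and 843 at 2 h, and 378 and 369 at 12 h. For H2A the sums were 34.6 and 108 CPM, then 55.5 and 359, then 26.2 and 26.8. For H2B they were 184 and 464 CPM, then 216 and 827, then 79.9 and 76.3. The sums of H2B, H2A and H3 at 12 h were thus below both vehicle libraries, while those of H1 and H4 were between them. H3 went from 62.2 and 215 CPM to 94.4 and 529 and then 30.1 and 31.1. H4 went from 104 and 356 CPM to 230 and 1207 and then 115 and 118. H1 genes gave 39.8% to 43.0% of the summed CPM in vehicle, 39.8% in replicate 1 and 22.4% in replicate 2 at 2 h, and 59.4% to 60.1% at 12 h. These shares are not corrected for length or for reads lost as not unique. The H1 members had 77.8% to 100% unique stretches, against a median of 56.2% over all members. The shares are therefore not the makeup of the histone mRNA.

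**Figure D3:**
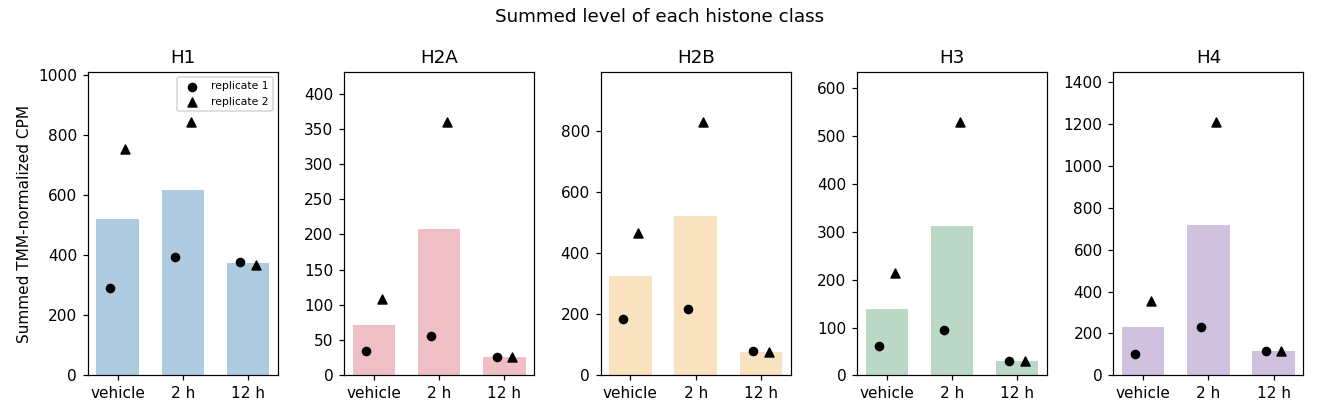
Summed TMM-normalized CPM of the members of each histone class, with a separate vertical axis from 0 for each. Bars are the means of 2 libraries, circles replicate 1 and triangles replicate 2: the replicates lie far apart in vehicle and at 2 h and on top of each other at 12 h.

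The comparison of 2 h with vehicle asks how the histone genes stood early in the response. No member was called at an adjusted p under 0.05 by edgeR with Benjamini-Hochberg adjustment (9.91% of all genes tested were called higher and 5.25% lower). At an unadjusted p under 0.05, 4 members were higher (16.9% of all genes) and 2 lower (12.8%), limma-voom called none and DESeq2 called 1 (11.7% of all genes higher). The median log2FC of the members was 1.27, against -0.01 for all genes tested, and 51 of the 55 values were above 0. Their median SE was 0.82, against 0.15 for all genes. The lowest adjusted p was 0.0759 (edgeR), for Hist2h2be, an H2B gene with a log2FC of -0.61 ± 0.19 (SE).

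The 2 h libraries differed in where they lay. Replicate 1 at 2 h lay within the range of the vehicle libraries for 47 members, and replicate 2 at 2 h lay above both vehicle libraries for 51. Without replicate 2 at 2 h, the median log2FC was -0.45 and 40 members had the opposite sign. Without replicate 1 at 2 h, 32 members were called higher (11.3% of all genes tested) and 1 lower (8.57%), and the median was 2.01. The groups did not overlap for 4 members: Hist1h1c and Hist1h2bc were higher in both 2 h libraries (28.3% of all genes did so), and Hist2h2be and Hist3h2a lower (27.5%).

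Set against the library of the same number, 49 members were higher at 2 h in replicate 1, with a median of 1.72-fold, and 51 in replicate 2, with a median of 2.64-fold. The labels do not say that equal numbers mark a shared culture or day. In a fit with the replicate number as a block, 32 members were called higher (16.4% of all genes tested were) and 2 lower (12.7%) at 2 h, against none without it. These 32 held 1 of 5 H1, 8 of 13 H2A, 8 of 15 H2B, 3 of 10 H3 and all 12 H4 genes. The summed CPM was 1.47 times the vehicle value in replicate 1 and 1.98 times in replicate 2. For H4 it was 2.21 and 3.39 times, the highest of the 5 classes in both replicates, and for H1 it was 1.36 and 1.12 times. Hist1h4c, an H4 gene with the highest log2FC at 2 h, had 9.599 and 28.3 CPM in vehicle, 25.7 and 144 CPM at 2 h, and 14.9 and 16.7 CPM at 12 h. Its log2FC was 2.16 ± 0.81 (SE), adjusted p = 0.132, and replicate 1 at 2 h lay within the vehicle range. Hist2h2aa1, with 0.942 and 4.78 CPM in vehicle, 3.695 and 20.1 CPM at 2 h, and 1.61 and 2.47 CPM at 12 h, had 2.07 ± 0.92 (SE), adjusted p = 0.193, and as it has no unique stretch its reads cannot be assigned with certainty.

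At 12 h, 9 members were called lower than in vehicle by edgeR with Benjamini-Hochberg adjustment (21.5% of all genes tested were) and none was called higher (21.8%), although DESeq2 called 1 (21.9%). At an unadjusted p under 0.05, 17 were lower (25.7% of all genes) and 1 higher (25.9%). In this fit the share of members called lower was below that of all genes, while the median log2FC was -1.57, against 0.02 for all genes, and 54 of the 55 values were below 0. Both 12 h libraries were below both vehicle libraries for 38 members (37.2% of all genes) and above them for 1 (39.5%). The 9 called were 2 H1, 4 H2B and 3 H3 genes, and no H2A or H4 gene was called. With the replicate number as a block, 31 members were called lower (27.5% of all genes tested were) and 1 higher (27.8%), so that the share called lower was then above that of all genes. Those lower were 2 H1, 9 H2A, 11 H2B, 8 H3 and 1 H4 gene (Hist1h4k), and the one higher was Hist1h1c.

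Among the linker histones, Hist1h1b had 40.3 and 148 CPM in vehicle, 43.03 and 137 CPM at 2 h, and 3.53 and 3.699 CPM at 12 h. It fell by 4.70 ± 0.84 (SE) on the log2 scale, with an adjusted p of 0.00472 (edgeR). Hist1h1a had 34.04 and 113 CPM in vehicle, 34.1 and 90.9 CPM at 2 h, and 5.797 and 8.12 CPM at 12 h and also fell (log2FC -3.41 ± 0.70 (SE), adjusted p = 0.00851). In both, the 12 h libraries were far below all others. Hist1h1c had 133 and 194 CPM in vehicle, 211 and 283 CPM at 2 h, and 248 and 235 CPM at 12 h. Its 12 h libraries were both above vehicle, and its log2FC of 0.56 ± 0.21 (SE), adjusted p = 0.0727, did not pass the test in the edgeR fit of all 3 groups without a block. It was called higher by DESeq2 (adjusted p = 0.0318), with the replicate block (0.00622) and in a fit of only the 2 groups (0.0318), and over all alternatives its adjusted p went from 0.00622 to 0.302.

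The other pair of H1 genes took a middle place. Hist1h1d had 35.3 and 148 CPM in vehicle, 43.1 and 166 CPM at 2 h, and 43.8 and 43.2 CPM at 12 h, and Hist1h1e had 48.2 and 152 CPM in vehicle, 63.02 and 167 CPM at 2 h, and 77.1 and 79.3 CPM at 12 h. Their 12 h libraries lay between the vehicle libraries, with log2FC of -1.07 ± 0.77 (SE), adjusted p = 0.302, and -0.36 ± 0.59 (SE), adjusted p = 0.658. Hist1h1b, Hist1h1a and Hist1h1c are well separated from related genes, with 100%, 100% and 91.5% unique stretches. Per kilobase of exon, Hist1h1c had the highest mean level of all members at 12 h (155 CPM per kilobase), followed by Hist1h1e (105), whereas Hist1h1b was at 4.86. These levels are not corrected for reads lost in less unique members.

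Of the H2B genes, Hist2h2be had 15.96 and 19.7 CPM in vehicle, 12.7 and 10.7 CPM at 2 h, and 5.62 and 6.42 CPM at 12 h. It fell at 12 h by 1.57 ± 0.19 (SE) on the log2 scale, with the lowest adjusted p of all members (0.000992, edgeR), and it was one of the few members whose replicates lay close together in every group. Hist2h2bb had 96.3 and 271 CPM in vehicle, 83.7 and 325 CPM at 2 h, and 26.5 and 32.5 CPM at 12 h and fell (log2FC -2.64 ± 0.72 (SE), adjusted p = 0.0244). Neither has a stem-loop match after its annotated stop codon. Hist1h2bh had 6.42 and 23.6 CPM in vehicle, 7.998 and 50.01 CPM at 2 h, and 0.872 and 0.873 CPM at 12 h, a log2FC of -4.09 ± 1.10 (SE), adjusted p = 0.0232. Hist1h2bm, with 6.07 and 20.9 CPM in vehicle, 9.36 and 46.5 CPM at 2 h, and 2.14 and 2.003 CPM at 12 h, was close to the threshold (log2FC -2.69 ± 0.90 (SE), adjusted p = 0.0496). The other 11 H2B members, not called against vehicle, were Hist1h2bf, Hist1h2bk, Hist1h2bj, Hist1h2bl, Hist1h2bp, Hist1h2bn, Hist1h2bg, Hist1h2bb, Hist1h2be, Hist1h2ba and Hist1h2bc.

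All 10 H3 genes were lower in both 12 h libraries than in both vehicle libraries (37.2% of all genes tested were), and 3 were called (21.5% of all genes). Hist1h3b had 10.1 and 33.4 CPM in vehicle, 17.7 and 88.6 CPM at 2 h, and 1.003 and 0.873 CPM at 12 h (log2FC -4.52 ± 1.03 (SE), adjusted p = 0.0125). Hist1h3c had 5.06 and 17.6 CPM in vehicle, 10.4 and 50.1 CPM at 2 h, and 0.436 and 0.771 CPM at 12 h (log2FC -4.24 ± 1.06 (SE), adjusted p = 0.0177). Hist1h3g had 4.71 and 14.02 CPM in vehicle, 4.303 and 29.2 CPM at 2 h, and 0.131 and 0.308 CPM at 12 h (log2FC -5.41 ± 1.29 (SE), adjusted p = 0.0147), and no member had a lower log2FC at 12 h against vehicle. All 3 were at 1.003 CPM or less at 12 h and therefore rest on few counts there. The other 7, Hist1h3d, Hist1h3i, Hist2h3b, Hist1h3h, Hist1h3a, Hist1h3f and Hist1h3e, had log2FC from -3.02 to -1.23 and were at 1.79 to 9.50 CPM at 12 h.

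Some H2A genes were close to 0 at 12 h, and none of the 13 was among the 9 members called against vehicle. DESeq2 called 4 of the 13 lower (22.5% of all genes tested), and a fit of only the 2 groups called 8 (25.3%). Hist1h2ag had 1.35 and 4.53 CPM in vehicle, 1.37 and 16.4 CPM at 2 h, and 0.131 and 0.0514 CPM at 12 h. Its 4 counts over both 12 h libraries, against 94 in vehicle, make it 30.5-fold lower per library size (95% exact interval 11.5 to 114, counting error only). Hist1h2ah, with 0.353 and 4.02 CPM in vehicle, 1.67 and 15.04 CPM at 2 h, and 0.0436 and 0.154 CPM at 12 h, was 22.4-fold lower by the same measure (8.36 to 84.5). In both, replicate 1 of vehicle was several times below replicate 2, which the counting interval does not cover. Hist1h2an had 1.06 and 3.31 CPM in vehicle, 1.42 and 11.8 CPM at 2 h, and 0 and 0.205 CPM at 12 h, resting on 0 and 4 counts at 12 h. At the other end, Hist3h2a and Hist2h2aa1 had log2FC of -0.53 and -0.48. Hist1h2ae, Hist1h2af, Hist1h2ak, Hist1h2ai, Hist1h2ac, Hist1h2ab, Hist2h2ab and Hist2h2ac lay between, from -3.08 to -0.74.

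None of the H4 genes was among the 9 called at 12 h, whereas Hist1h4k and Hist1h4d were called in a fit of only the 2 groups (25.3% of all genes tested were lower). Their median log2FC was -1.02, from -2.16 (Hist1h4k) to -0.26 (Hist1h4c). Both 12 h libraries were below both vehicle libraries for 3 of the 12 (37.2% of all genes tested). The same held for 2 of 5 H1, 11 of 13 H2A, 12 of 15 H2B and all 10 H3 genes. The counts of H1 and H4 were near or below the share of all genes. Hist1h4k had 7.07 and 23.1 CPM in vehicle, 14.3 and 81.5 CPM at 2 h, and 3.36 and 3.34 CPM at 12 h. Hist1h4d, at 12 h the H4 gene with the highest level per kilobase (57.0 CPM), had 28.9 and 80.6 CPM in vehicle, 54.97 and 291 CPM at 2 h, and 23.4 and 21.4 CPM at 12 h, and its log2FC was -1.29 ± 0.78 (SE), adjusted p = 0.23. Hist1h4i was the other member below vehicle. In the remaining 9, Hist1h4m, Hist1h4f, Hist2h4, Hist1h4j, Hist4h4, Hist1h4b, Hist1h4h, Hist1h4a and Hist1h4c, the vehicle and 12 h libraries overlapped. Differences between the classes were not tested, and replicate 1 of vehicle is what the overlap rests on.

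**Figure D4:**
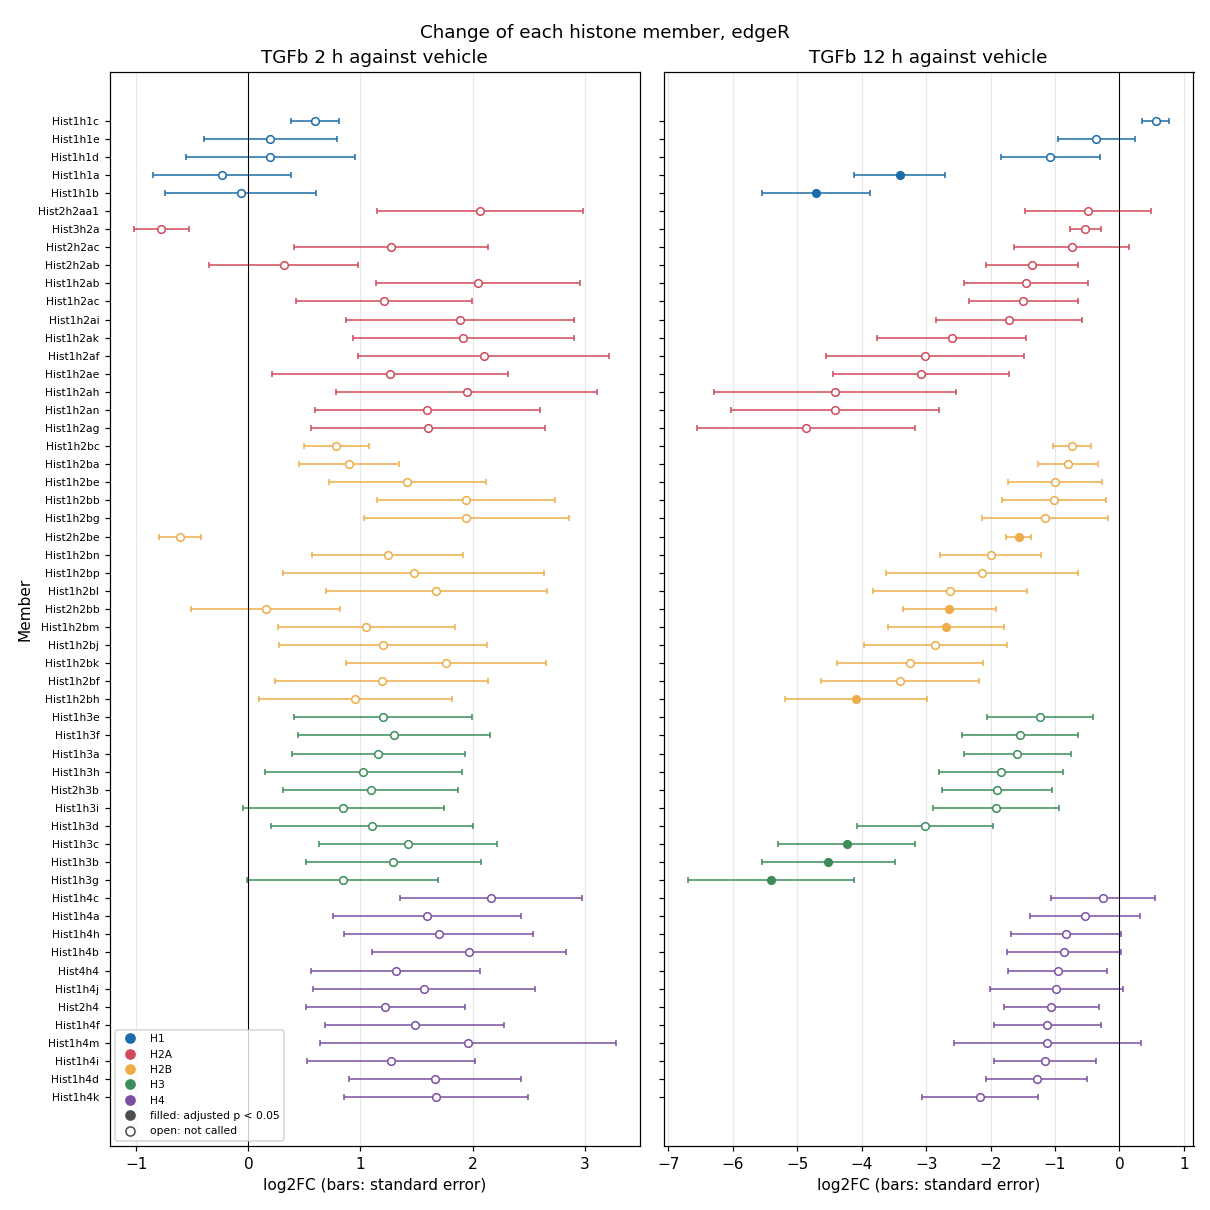
Log2FC with its standard error (edgeR) of each member at 2 h and at 12 h against vehicle, by histone class and in the order of the 12 h value. Filled points passed an adjusted p under 0.05: none at 2 h and 9 at 12 h.

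These calls rest on few libraries. Without replicate 2 of vehicle, 4 members were called lower (15.9% of all genes tested), all of them among the 9, and 1 higher (14.8%), and 15 log2FC had the opposite sign; Hist2h2bb, Hist1h2bm, Hist1h3g, Hist1h2bh and Hist1h3c were then not called. With replicate 1 or replicate 2 at 12 h left out, only Hist2h2be remained called (13.6% and 14.1% of all genes were lower). With one of the 2 h libraries left out, which only lend their spread to the fit, 31 were called lower (25.1% or 24.4% of all genes) and 1 higher (23.6% or 24.5%). Limma-voom called 4 lower (21.3%) and DESeq2 19 (22.5%). Against the library of the same number, 40 members were lower at 12 h in replicate 1, with a median of 0.666 times vehicle, and 54 in replicate 2, with a median of 0.236.

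Between the TGFβ1 time points, 33 members fell from 2 h to 12 h (18.9% of all genes tested were called lower) and none rose (15.2%) by edgeR with Benjamini-Hochberg adjustment. At an unadjusted p under 0.05, 48 were lower (23.8% of all genes) and 0 higher (21.4%), and limma-voom and DESeq2 also called none higher. The median log2FC was -2.95, against 0.01 for all genes, and both 12 h libraries lay below both 2 h libraries for 50 members (34.2% of all genes) and above them for none (34.8%). The called members were 2 of 5 H1, 9 of 13 H2A, 14 of 15 H2B, 6 of 10 H3 and 2 of 12 H4 genes. Of the H2A genes called, Hist1h2ae, Hist1h2af, Hist1h2ag, Hist1h2ah and Hist1h2an reached 2 CPM over total counts only in replicate 2 of vehicle and of 2 h. They were thus members only through libraries in which they are high, and their fall is partly fixed by the filter.

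The lowest adjusted p in this comparison was that of Hist1h3b, with a log2FC of -5.81 ± 1.04 (SE), adjusted p = 0.00685. The lowest log2FC was that of Hist1h2ag, -6.47 ± 1.58 (SE), adjusted p = 0.0211 (edgeR). By counts over both libraries it was 94.3-fold lower (36.5 to 348, counting error only). Its 2 h libraries held 27 and 325 counts, so this ratio rests mostly on replicate 2, which the interval does not cover. Hist1h2bk had 2.53 and 9.75 CPM in vehicle, 5.57 and 35.98 CPM at 2 h, and 0.654 and 0.616 CPM at 12 h and fell (log2FC -5.02 ± 1.12 (SE), adjusted p = 0.0151), and Hist1h2bn, with 1.77 and 5.42 CPM in vehicle, 3.898 and 13.02 CPM at 2 h, and 1.05 and 0.719 CPM at 12 h, fell as well (log2FC -3.24 ± 0.76 (SE), adjusted p = 0.0183). Hist1h2bc had -1.53 ± 0.30 (SE), adjusted p = 0.00906. Hist1h4k and Hist1h4d were the H4 genes called, with -3.84 ± 0.92 (SE), adjusted p = 0.0199, and -2.95 ± 0.81 (SE), adjusted p = 0.0318. Hist3h2a alone was above 0, with 0.24 ± 0.24 (SE), adjusted p = 0.476.

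Hist1h1c had the value nearest to 0 in this comparison, with -0.03 ± 0.21 (SE), adjusted p = 0.915. Without replicate 2 at 2 h, 14 of the 33 were called (17.9% of all genes tested were lower) and the median was -1.13, and without replicate 1 or replicate 2 at 12 h the number called was 1 (Hist1h2bc, 9.31% of all genes) or 0 (9.93%). Without replicate 1 at 2 h it was 52 (19.2%). Limma-voom called 9 (18.3%) and DESeq2 41 (20.1%). With the replicate block it was 51 lower (25.2% of all genes tested) and none higher (23.3%). These 51 were 2 H1, 12 H2A, 15 H2B, 10 H3 and 12 H4 genes. As the 12 h comparisons share the same 12 h libraries, they are not independent of each other.

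Other genes of the histone pathway were read from lists. Of 24 transcription and processing factors tested, 1 was higher and 1 lower at 2 h, and 3 were higher and 1 lower at 12 h, each against vehicle. The shares of all genes tested were 9.91% (higher) and 5.25% (lower) at 2 h, then 21.8% (higher) and 21.5% (lower) at 12 h, and those of the factors were below them. Slbp, the stem-loop-binding protein, had 25.6 and 30.9 CPM in vehicle, 22.8 and 27.7 CPM at 2 h, and 20.6 and 23.6 CPM at 12 h, with a log2FC at 12 h of -0.36 ± 0.17 (SE), adjusted p = 0.128. Npat, the activator of histone transcription in S phase, had 67.8 and 66.4 CPM in vehicle, 80.8 and 59.1 CPM at 2 h, and 78.2 and 73.2 CPM at 12 h (0.17 ± 0.16 (SE), adjusted p = 0.408). Neither was called in any comparison. Casp8ap2, which acts with Npat, was not called against vehicle and was higher at 12 h than at 2 h (log2FC 0.64 ± 0.15 (SE), adjusted p = 0.0174). Upf1, a helicase of histone mRNA decay, was higher at 2 h (0.55 ± 0.11 (SE), adjusted p = 0.021) and at 12 h (0.33 ± 0.11 (SE), adjusted p = 0.0486). Srrt, a partner of the cap-binding complex, was lower at 12 h (-0.42 ± 0.11 (SE), adjusted p = 0.025).

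Histone chaperones carry new histones to the replication fork and elsewhere. None of the 23 was called at 2 h at an adjusted p under 0.05 (edgeR), and at 12 h 11 fell (21.5% of all genes tested were called lower) and 3 rose (21.8%). Chaf1b, a subunit of the CAF-1 complex that deposits H3 and H4 behind the fork, had 31.1 and 43.5 CPM in vehicle, 25.4 and 33.7 CPM at 2 h, and 10.9 and 12.4 CPM at 12 h, and fell at 12 h (-1.68 ± 0.22 (SE), adjusted p = 0.00136). Asf1b, another H3-H4 chaperone, had 8.36 and 18.5 CPM in vehicle, 8.403 and 18.8 CPM at 2 h, and 1.53 and 1.03 CPM at 12 h (-3.38 ± 0.57 (SE), adjusted p = 0.00377). Of 9 tested histone genes listed as replication-independent, 3 fell at 12 h (21.5% of all genes) and none was called at 2 h. The 9 include H2afx, which has a stem-loop match. Cenpa, the centromeric H3 variant, had 27.97 and 46.4 CPM in vehicle, 28.4 and 44.4 CPM at 2 h, and 1.22 and 1.75 CPM at 12 h (-4.65 ± 0.39 (SE), adjusted p = 0.000227), and H2afz, an H2A variant, fell with -1.57 ± 0.36 (SE), adjusted p = 0.0132.

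Genes of S phase and DNA replication gave the largest count among these lists. At 12 h 26 of 42 were lower than in vehicle (21.5% of all genes tested) and none higher (edgeR, adjusted p under 0.05), and at 2 h 1 was lower (Ccne2) and 1 higher (Cdc25a). Their median log2FC at 12 h was -1.15. Ccna2, the cyclin A of S and G2 phase, had 92.7 and 190.2 CPM in vehicle, 94.2 and 173 CPM at 2 h, and 1.87 and 2.16 CPM at 12 h (-6.13 ± 0.52 (SE), adjusted p = 0.000241). Prim1, the catalytic subunit of DNA primase, had 27.1 and 43.2 CPM in vehicle, 24.4 and 37.1 CPM at 2 h, and 5.88 and 7.14 CPM at 12 h (-2.43 ± 0.31 (SE), adjusted p = 0.0011). In both, replicate 2 was above replicate 1 in vehicle and at 2 h, as in most histone members, and the 12 h libraries were below all 4 others. At 2 h against vehicle, the median log2FC of the S-phase list was -0.04 and that of the histone members 1.27.

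**Figure D5:**
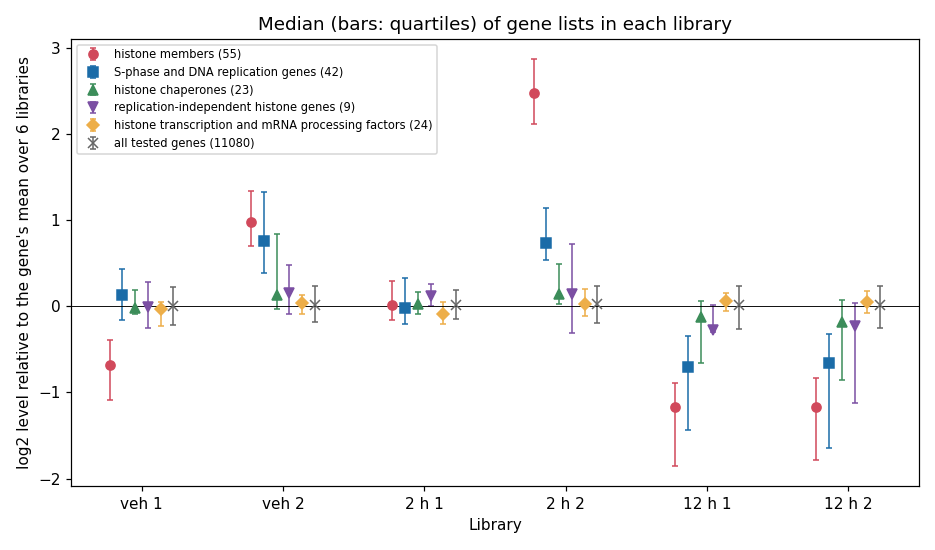
Median log2 level of each gene list in the 6 libraries, relative to each gene's mean over the 6, with quartiles as bars. The histone members reach 2.47 and the S-phase genes 0.74 in replicate 2 at 2 h, and both lists are lowest at 12 h (-1.17 and -0.71 in replicate 1).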

How the data were processed

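Stranded total RNA from NMuMG cells was sequenced in single reads of 50 bases, for 2 replicates of each of 3 groups. According to the methods and the processing notes, the authors aligned the reads to mm9 with subjunc (Subread), removed duplicates with SAMtools 0.1.19, and counted reads by strand over exons with featureCounts. The deposited values are raw counts of 21240 genes, with no normalization. Of the 55 members, 36 held more counts than exon bases in at least 1 library (up to 14.7 counts per base, on GENCODE vM1 exons), which 1 read per start position on 1 strand would not give, so the effect of duplicate removal on the deposited counts is unclear.

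Counts were tested in R 4.3.3 by the quasi-likelihood test of edgeR 4.0.16 with TMM factors, in 1 fit of the 3 groups, over the 11080 genes that reached 2 CPM in 2 or more libraries. P-values are two-sided and were adjusted over all genes tested in a contrast (Benjamini-Hochberg), and a gene was called at an adjusted p under 0.05. limma 3.58.1 and DESeq2 1.42.0 were used for alternatives. Each SE was derived from the log2FC and the F statistic of the test (size of the log2FC over the root of F). The study's methods state limma-voom, which was run as an alternative. Motifs and unique stretches were searched in Python 3.11.15 on the reference sequences. Intervals of count ratios are exact binomial and cover counting error only. The tests were tried on simulated counts that held no shift shared by libraries of the same number. The trial therefore does not cover the replicate difference seen here.

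All members are named. Values in every library are given for the 12 with the lowest adjusted p, the 5 with the highest mean CPM, the 3 with the largest log2FC in each contrast and direction, the H1 genes and those nearest the threshold. Other members were added after their values were seen. From each list of other genes, those with the lowest adjusted p at 12 h or 2 h could be named, with Slbp, Npat and Casp8ap2. The members and all gene lists were chosen with earlier results of these data known. Alternatives were limma-voom, DESeq2, other scalings and filters, a block for the replicate number, a fit of the 2 compared groups alone, an added limit of 1 on the absolute log2FC, and each library left out in turn.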

Additional observations from a re-analysis of the deposited data

How the results depend on the processing

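With 2 libraries in each group, the numbers of members called depended on the settings, and signs turned where 1 library was left out (40 of 55 members at 2 h against vehicle without replicate 2 at 2 h). At 2 h against vehicle (0 higher, 0 lower), DESeq2 called 1 higher and total counts without TMM factors 2 lower, and leaving out 1 library gave 0 to 32 higher and 0 to 1 lower. At 12 h against vehicle (0 higher, 9 lower), limma-voom called 4 lower (21.3% of all genes tested), DESeq2 19 lower (22.5%) and 1 higher (21.9%). A fit without a filter called 15 lower (16.5%), and a fit of only the 2 groups 31 lower (25.3%) and 1 higher (23.8%). With 1 library left out, the median log2FC ran from -2.14 to -0.65. At 12 h against 2 h (33 lower), limma-voom called 9 lower, and leaving out 1 library gave 0 to 52. The cause was not tested. Where a group was left with 1 library, that library was assumed to vary like the other groups.

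Same-numbered libraries deviated together across all genes (r = 0.70 for 2 h with vehicle, 0.27 for 12 h with vehicle and 0.39 for 12 h with 2 h; without the members 0.66, 0.28 and 0.41), but the labels do not say what a number marks, and each contrast has only 2 pairs. With the replicate number as a block, 32 members were called higher (16.4% of all genes tested) and 2 lower (12.7%) at 2 h against vehicle. At 12 h against vehicle 31 were lower (27.5%) and 1 higher (27.8%), and at 12 h against 2 h 51 were lower (25.2%). In that fit the log2FC of Hist1h4c at 12 h against vehicle was 0.000708 in place of -0.26.

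Signs of single members turned only there and with 1 library left out. At 2 h against vehicle the lowest and highest log2FC were -1.13 to 1.16 for Hist1h1b, -0.29 to 2.40 for Hist1h3b, -0.11 to 2.58 for Hist1h3c, -1.11 to 0.88 for Hist1h1a, -1.12 to 1.83 for Hist1h3g, -0.90 to 2.17 for Hist1h2bh, -0.13 to 3.03 for Hist1h2bk, -0.069 to 2.76 for Hist1h4k, -0.52 to 2.20 for Hist1h2bm, -1.13 to 1.09 for Hist2h2bb, -0.67 to 1.25 for Hist1h1e, -1.09 to 1.57 for Hist1h1d, -0.0899 to 4.47 for Hist1h2af, -1.09 to 2.71 for Hist1h2ag, -0.37 to 4.54 for Hist1h2ah, -1.29 to 3.13 for Hist1h2bp and -0.61 to 2.63 for Hist1h2an. At 12 h against vehicle they were -0.96 to 0.70 for Hist1h1e, -1.77 to 0.30 for Hist1h1d, -0.84 to 0.72 for Hist1h4c and -1.24 to 1.10 for Hist2h2aa1, and at 12 h against 2 h -0.23 to 0.20 for Hist1h1c, -1.09 to 0.31 for Hist1h1e and -1.93 to 0.0135 for Hist1h1d. Of the other log2FC values of named members under an alternative, 828 kept their sign and side of the threshold, 74 lost the call and 100 gained it.

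Over total counts, the summed CPM at 12 h was 603 for all members, 360.4 for H1, 25.6 for H2A, 75.4 for H2B, 29.5 for H3 and 112 for H4, and over all 64 histone genes it was 27.9 for H2A and 32.5 for H3. With 1 library left out, each mean is the value of the other: 675 to 1899 in vehicle, 989.7 to 3764 at 2 h and 621 to 629 at 12 h for all members. By class it was 290.3 to 756, 394 to 843 and 369 to 378 for H1; 34.6 to 108, 55.5 to 359 and 26.2 to 26.8 for H2A; 184 to 464, 216 to 827 and 76.3 to 79.9 for H2B; 62.2 to 215, 94.4 to 529 and 30.1 to 31.1 for H3; and 104 to 356, 229.8 to 1207 and 115 to 118 for H4.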

Other observations

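H2afx, an H2A variant listed here as replication-independent, was among the 3 other genes with a stem-loop match after the stop codon. As nearly all members have such a match, the listing is uncertain for this gene. It was chosen after its values were seen. It had 8.77 and 17.7 CPM in vehicle, 12.6 and 52.0 CPM at 2 h, and 6.80 and 5.65 CPM at 12 h. As in most histone members, replicate 2 was above replicate 1 in vehicle and at 2 h. It was not called against vehicle at either time, and at 12 h against 2 h its log2FC was -2.37 ± 0.67 (SE), with an adjusted p of 0.0342 (edgeR, Benjamini-Hochberg).

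Among the RNAs without a poly(A) tail, Rpph1, the RNA part of RNase P, was also chosen after its values were seen. It had 1.59 and 33.2 CPM in vehicle, 2.18 and 37.5 CPM at 2 h, and 32.0 and 29.8 CPM at 12 h. Its replicates were thus apart in the groups in which those of the histone members were, but its 12 h libraries were at the level of the higher replicate, whereas those of the histone members summed to less than the lower one. Rmrp, a related RNA, had 1707 and 2484 CPM in vehicle, 3001 and 5673 CPM at 2 h, and 2906 and 2319 CPM at 12 h, highest in the library in which most histone members were highest. Of the 42 RNAs of this list that were tested, none was called at 2 h by edgeR at an adjusted p under 0.05, and at 12 h 7 were higher and 1 lower than in vehicle (21.8% and 21.5% of all genes tested were). Snord93, a small nucleolar RNA, was higher at 12 h, with a log2FC of 1.43 ± 0.27 (SE) and an adjusted p of 0.00594.

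Members were also divided by how much of their exons is unique in the genome. At 12 h against vehicle, the 33 members with at least 50% unique stretches had a median log2FC of -1.16 and 6 calls, and the 22 others had -2.40 and 3 calls, all lower (21.5% of all genes tested were called lower). At 12 h against 2 h the medians were -2.71 and -3.95. The difference was not tested.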
